A study of Mus musculus with 3 samples.

Results

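The genes described here are the AP-1 and immediate-early genes of adult lung endothelial cells (ECs), 10 genes out of the 24346 gene symbols of the deposited table. The rule that picks them is a list of names and uses no value, but the list was drawn up with earlier results of these data known, so the shares of all genes given beside the counts are descriptions only. *Fos*, *Fosb*, *Fosl1* and *Fosl2* encode the Fos family, *Jun*, *Junb* and *Jund* encode the Jun family, and *Atf3*, *Egr1* and *Ier3* are immediate-early genes outside these families. All 10 had a row in the table. The values come from 3 bulk RNA-seq libraries (named S38, S44 and S52 in the labels) from wild type male C57BL/6J mice aged 6 to 8 weeks with no treatment given in the labels. Per the study's methods, VE-cadherin antibody was injected 10 min before death, the lungs were minced and held in collagenase and dispase at 37 °C for 20 to 30 min, and CD31-stained cells were sorted with counterstains for CD45 and podoplanin. All libraries belong to 1 group and nothing in the labels says how many mice gave each, so no condition was compared, no test was run, and the spread over libraries may be technical. With 3 libraries the smallest two-sided p of an exact sign-flip permutation test between 2 genes would be 0.25.

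AP-1 is a dimeric transcription factor. Jun proteins pair with each other or with a Fos protein through a leucine zipper, and Fos proteins need a Jun partner. Immediate-early genes are transcribed within minutes of a stimulus without new protein synthesis, and many of their mRNAs are short-lived, in part through AUUUA pentamers in the 3′ untranslated region (UTR). In ECs they respond to shear stress, growth factors and cytokines, and enzymatic dissociation of a tissue is a known trigger as well. No library of undissociated tissue was analysed here, so its part in the levels below was not tested.

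The values are FPKM, fragments scaled to gene length and library size, so that levels of different genes can be set side by side. The deposited columns summed to 1153890, 1603596 and 1419351 FPKM in S38, S44 and S52. Rows whose symbol GENCODE M21 lists as protein-coding made up 38.2%, 28.4% and 31.6% of these sums. Protein-coding genes under a symbol that M21 does not list, such as *Cyr61*, are left out of this share and of the protein-coding ranks below. From the steps between low values the depth was estimated at 37700000, 38800000 and 34650000 fragments. At these depths 1 FPKM over a counted length of 2000 bp stands for 69.3 to 77.6 fragments. A count of 0 over that length allows at most 0.0433 FPKM (3 fragments, counting error only). The estimate also fitted 150, 160 and 200 bp to be taken off gene length in S38, S44 and S52. These were taken off for the *Fosl1* fragments below but not here, so a 2000 bp gene has fewer fragments and a higher limit. The 10 endothelial markers summed to 6369, 7058 and 6291 FPKM. The highest was *Cldn5*, a tight junction gene, at 1416 ± 357 FPKM (SD, n = 3 libraries). Transcripts typical of other cells were also abundant. The alveolar type 2 gene *Sftpc* was at 3333, 2862 and 658 FPKM and the airway gene *Scgb1a1* at 2669, 2213 and 378 FPKM. Both exceeded *Cldn5* in S38 and S44 and were below it in S52. The share of RNA from other cells was not estimated. S52 stood apart in markers of other cells. In S52 all 5 platelet markers, all 5 alveolar type 2 markers, all 5 airway markers and all 5 leukocyte markers were over 2-fold below the highest library.

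The sequences below show features tied to the background above: short 3′ UTR stretches with the AUUUA pentamer, written ATTTA in capitals, from 4 members that held 2 of them in the 30 bases shown. They were read from GENCODE M21 transcripts on GRCm38 (mm10), 5′ to 3′ on the gene's strand. *Fos* (plus strand, chr12:85477101-85477130) has overlapping pentamers.
Fos: tgtgttttcaATTTATTTAttaagatggat
Fosl2: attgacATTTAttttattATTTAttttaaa
Jun: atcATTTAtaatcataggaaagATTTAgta
Ier3: taattaatATTTAtgtATTTAtgtatatcc
The *Fosl2* stretch lies at chr5:32156865-32156894 (plus strand), that of *Jun* at chr4:95049207-95049236 (minus strand) and that of *Ier3* at chr17:35822485-35822514 (plus strand). The whole 3′ UTR of *Ier3*, 613 bp, held 5 pentamers, or 8.16 per kb, a density above that of 97.8% of 19474 genes with an annotated 3′ UTR. *Fos* held 4 in 815 bp, 4.91 per kb, above 92.2% of genes. *Junb* was at 4.12 per kb and *Jun* at 3.24 per kb. *Fosb* was the lowest, with 1 pentamer in 2145 bp, or 0.466 per kb. The density was above the median of all genes, 1.25 per kb, in 9 of the 10 members. Overlapping pentamers were found in *Fos* and in no other member, and in 6.19% of all genes. A pentamer is a match of letters and was not tested as a site.

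Short promoter stretches are given for 4 members, since the members differ in which motif their promoters hold. RefSeq promoter windows of GRCm38.p6, from 250 bases before to 50 after the start site, were found for 8 members. *Egr1* and *Fosl1* had no window. Each stretch is upstream of the RefSeq start site and carries its motif in capitals. That of *Fosl2* lies inside the gene as GENCODE M21 annotates it, from 32135801 on, because the start sites of these annotations differ.
Fos: acagcgcttcTATAAAggcgccagct
Jun: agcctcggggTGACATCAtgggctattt
Fosb: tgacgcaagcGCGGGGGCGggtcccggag
Fosl2: ccggctgcgcGCGGGGGCGgaagggcgcg
The *Fos* stretch, with a TATA box that starts at base -33, lies at chr12:85473847-85473872 (plus strand). The *Jun* stretch, whose AP-1-like motif TGACNTCA starts at base -45, lies at chr4:95052250-95052277 (minus strand). The *Fosb* stretch, with the early growth response motif GCGNGGGCG at base -50, lies at chr7:19310077-19310105 (minus strand), and that of *Fosl2*, with the same motif at base -79, at chr5:32136383-32136411 (plus strand). TATAAA, searched on the gene's strand, was present in 8.32% of 32851 windows, TGACNTCA in 8.83% and GCGNGGGCG in 5.55%, both of them searched on either strand. The AP-1 motif TGANTCA (7.81% of windows) and the CArG box bound by serum response factor (1.63% of windows) had no match in the 8 windows. Bases further upstream and the promoters of *Egr1* and *Fosl1* were not searched, so these genes may hold such motifs there. *Junb* also held TATAAA, in a stretch not shown.

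**Figure D1:**
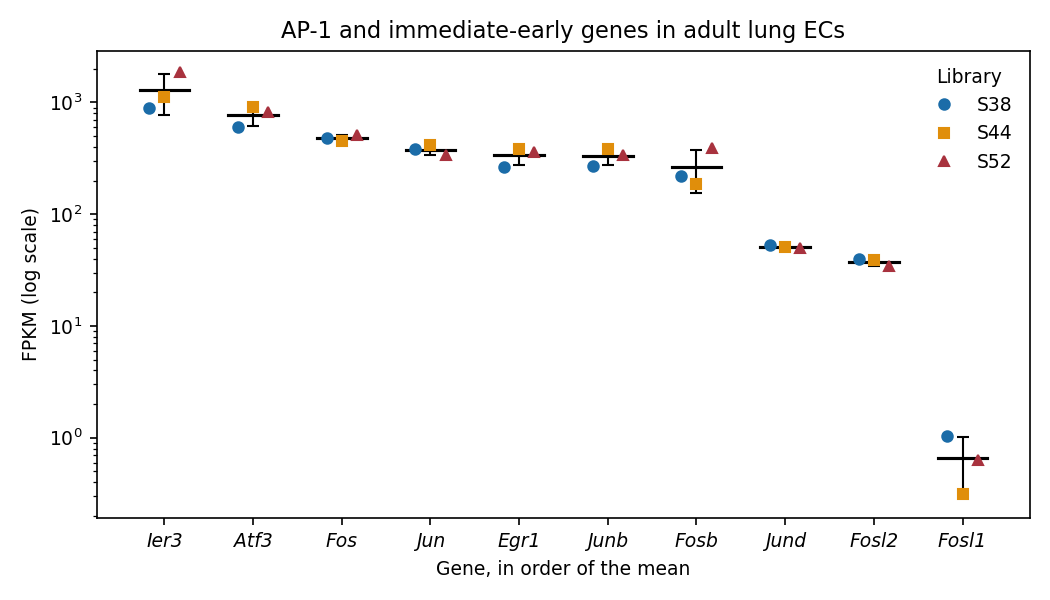
FPKM of each gene (log scale) in S38, S44 and S52, with the mean (line) and SD (bar) of the 3 libraries. *Ier3* and *Atf3* were highest, 7 genes had a mean above 100 FPKM, *Jund* and *Fosl2* lay near 51.2 and 37.6 FPKM, and *Fosl1* lay below 1 FPKM.

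*Ier3*, *Atf3*, *Fos*, *Jun*, *Egr1*, *Junb* and *Fosb* were among the most abundant transcripts of the sorted lung EC libraries, which also held transcripts typical of other cells. The mean was at 100 FPKM or above for 7 of the 10 members, against 3.64% of all rows of the table, and at 1 FPKM or above for 9, against 48.3%. The median of the members' means was 334 FPKM, the median of all rows was 0.784 FPKM and that of the 11770 genes at a mean of at least 1 FPKM was 11.2 FPKM. All 7 were also at 100 FPKM or above in each library. In every library *Ier3* came first, *Atf3* next and *Fos* after it, and *Jund*, *Fosl2* and *Fosl1* filled the last 3 places in that order. The 4 genes in between, *Jun*, *Egr1*, *Junb* and *Fosb*, changed places from library to library. Because these are bulk libraries, a small number of cells with high levels and a moderate level in all cells cannot be told apart, nor can fewer cells of a type and less RNA per cell.

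*Fos*, the founding member of its family, lies on the plus strand of chromosome 12 (85473890 to 85477273, GRCm38). Its levels were 476 (S38), 455 (S44) and 516 FPKM (S52), a mean of 482 ± 30.7 FPKM (SD, n = 3). The libraries lay close together, with the highest 1.13-fold above the lowest. Its mean ranked 221 among all genes and 150 among the 19862 genes matched by symbol as protein-coding.

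*Fosb*, which encodes the FosB protein and by alternative splicing its shorter form ΔFosB, lies on the minus strand of chromosome 7 (19302696 to 19310051). Its levels were 219 (S38), 187 (S44) and 393 FPKM (S52), a mean of 266 ± 111 FPKM (SD, n = 3). S52 stood above both other libraries, 2.097-fold above S44 on FPKM + 1. The values are per gene and do not separate the splice forms.

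*Fosl2*, which encodes Fra-2, lies on the plus strand of chromosome 5 (32135801 to 32157842). Its levels were 39.9 (S38), 38.8 (S44) and 34.2 FPKM (S52), a mean of 37.6 ± 2.996 FPKM (SD, n = 3). Its range over libraries was narrow and did not overlap that of any other member.

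*Fosl1*, which encodes Fra-1, was the only member with a mean below 1 FPKM. Its levels were 1.04 (S38), 0.315 (S44) and 0.627 FPKM (S52), a mean of 0.659 ± 0.362 FPKM (SD, n = 3). These values stand for an estimated 67, 21 and 36 fragments, with exact 95% Poisson intervals of 0.804 to 1.32 FPKM, 0.197 to 0.486 FPKM and 0.437 to 0.864 FPKM that cover counting error only. The intervals of S38 and S44 did not overlap, and that of S52 overlapped both. On chromosome 19 (5447547 to 5455946, plus strand) the annotated exons of *Fosl1* share 1163 bases, 57.2% of its exonic bases, with *Ccdc85b* on the other strand. *Ccdc85b* was at 10.9 to 13.9 FPKM, and the libraries keep no strand, so reads of the shared bases cannot be told apart and the level of *Fosl1* is uncertain.

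The Fos family as a whole summed to 736 (S38), 682 (S44) and 944 FPKM (S52), a mean of 787 ± 138 FPKM (SD, n = 3). *Fos* supplied 62.1% ± 6.51 of the sum and *Fosb* 32.9% ± 7.64 (SD, n = 3 for both). The balance of these genes differed in S52, where *Fosb* made up 41.7% of the sum, against 29.7% in S38 and 27.4% in S44. The ratio of *Fosb* to *Fos* was 0.460 (S38), 0.411 (S44) and 0.762 (S52), and a ratio within a library does not depend on how libraries are scaled. *Fosl2* added 3.63% to 5.70% and *Fosl1* at most 0.141%.

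*Jun*, the partner of Fos proteins in the classical AP-1 dimer, is a gene without introns on the minus strand of chromosome 4 (95049034 to 95052222). Its levels were 380 (S38), 415 (S44) and 336 FPKM (S52), a mean of 377 ± 39.8 FPKM (SD, n = 3). S44 was the highest library and S52 the lowest, 1.24-fold apart. The antisense gene *Junos* shares 232 bases, 7.28% of the exonic bases of *Jun*.

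*Junb*, which can restrain growth-promoting activity of Jun, lies on the minus strand of chromosome 8 (84974484 to 84978718). Its levels were 271 (S38), 382 (S44) and 339 FPKM (S52), a mean of 331 ± 56.3 FPKM (SD, n = 3). S38 was below both other libraries. Its annotated exons share 173 bases, 7.52%, with *Prdx2* on the other strand, which was at 145 to 151 FPKM.

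*Jund*, the Jun gene that is expressed constitutively in many tissues, lies on the plus strand of chromosome 8 (70698949 to 70700616). Its levels were 52.6 (S38), 51.2 (S44) and 49.8 FPKM (S52), a mean of 51.2 ± 1.42 FPKM (SD, n = 3), with the lowest coefficient of variation among the members, 2.78%. The antisense gene *Gm11175*, not analysed here, covers 877 bases, 52.6% of the exonic bases of *Jund*, so its reads cannot be told from those of *Jund*.

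The Jun family summed to 703 (S38), 849 (S44) and 725 FPKM (S52), a mean of 759 ± 78.5 FPKM (SD, n = 3). *Jun* supplied 49.7% ± 3.91, *Junb* 43.5% ± 4.38 and *Jund* 6.79% ± 0.730 of it (SD, n = 3 for each). The sums of the Fos and Jun families were of like size, and their order changed between libraries. The ratio of the Fos family to the Jun family was 1.05 (S38), 0.803 (S44) and 1.30 (S52). Without S52 the mean ratio was 0.925, against 1.05 with all libraries. *Fos* alone was above *Jun* in each library, by a ratio of 1.25 in S38, 1.10 in S44 and 1.54 in S52, and the ranges of these genes did not overlap.

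**Figure D2:**
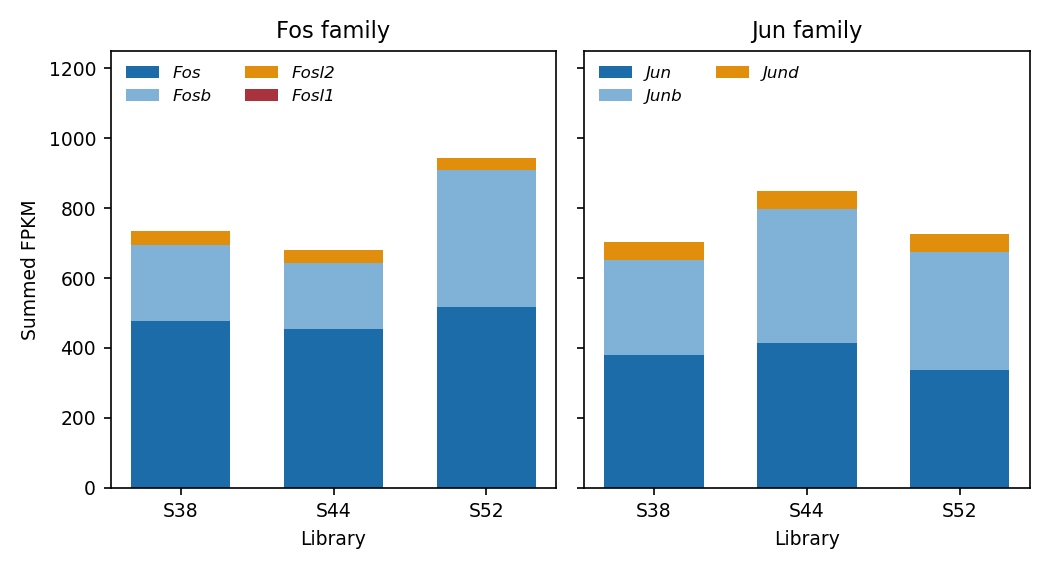
Summed FPKM of the Fos family (left) and the Jun family (right) in each library, stacked by gene from 0. *Fosl1*, at most 1.04 FPKM, is too small to be seen, and the *Fosb* segment is larger in S52 (393 FPKM) than in S38 (219 FPKM) and S44 (187 FPKM).

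*Atf3*, a stress-induced bZIP factor that pairs with Jun proteins and can repress transcription as a homodimer, lies on the minus strand of chromosome 1 (191170296 to 191218039). Its levels were 599 (S38), 912 (S44) and 816 FPKM (S52), a mean of 775 ± 160 FPKM (SD, n = 3). S38 was the lowest library, and S44 was 1.52-fold above it. *Gm24748*, a small RNA gene on the other strand within the locus, shares 0 exonic bases with it. Its level was 1.26 to 2.002 times that of *Fos* within a library, and the ranges of these genes did not overlap.

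*Egr1*, a zinc finger factor induced by serum and shear stress, lies on the plus strand of chromosome 18 (34859823 to 34864984). Its levels were 264 (S38), 384 (S44) and 363 FPKM (S52), a mean of 337 ± 64.1 FPKM (SD, n = 3). Here too S38 was the lowest library and S44 the highest, 1.45-fold apart.

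*Ier3*, also called IEX-1, encodes a short stress-response protein that modulates apoptosis and is a target of NF-κB and p53. It lies on the plus strand of chromosome 17 (35821684 to 35822923). Its levels were 884 (S38), 1124 (S44) and 1873 FPKM (S52), a mean of 1294 ± 516 FPKM (SD, n = 3). S52 was 2.12-fold above S38. Its mean ranked 29 among genes matched by symbol as protein-coding. Its ratio to *Pecam1*, a general endothelial marker, was 0.785 (S38), 0.924 (S44) and 1.61 (S52). *Ier3* was above *Atf3* in each library, although the highest *Atf3* value, 912 FPKM in S44, exceeded the lowest *Ier3* value, 884 FPKM in S38.

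In the order of means, from *Ier3* through *Atf3*, *Fos*, *Jun*, *Egr1*, *Junb*, *Fosb*, *Jund* and *Fosl2* to *Fosl1*, 5 of the 9 pairs of neighbours had ranges that did not overlap. These were *Atf3* above *Fos*, *Fos* above *Jun*, *Fosb* above *Jund*, *Jund* above *Fosl2* and *Fosl2* above *Fosl1*. *Ier3* and *Atf3* kept their order in each library with overlapping ranges. *Jun* and *Egr1*, *Egr1* and *Junb*, and *Junb* and *Fosb* each changed order in 1 library, and the means within each of these pairs differed by less than the larger of their SDs.

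**Figure D3:**
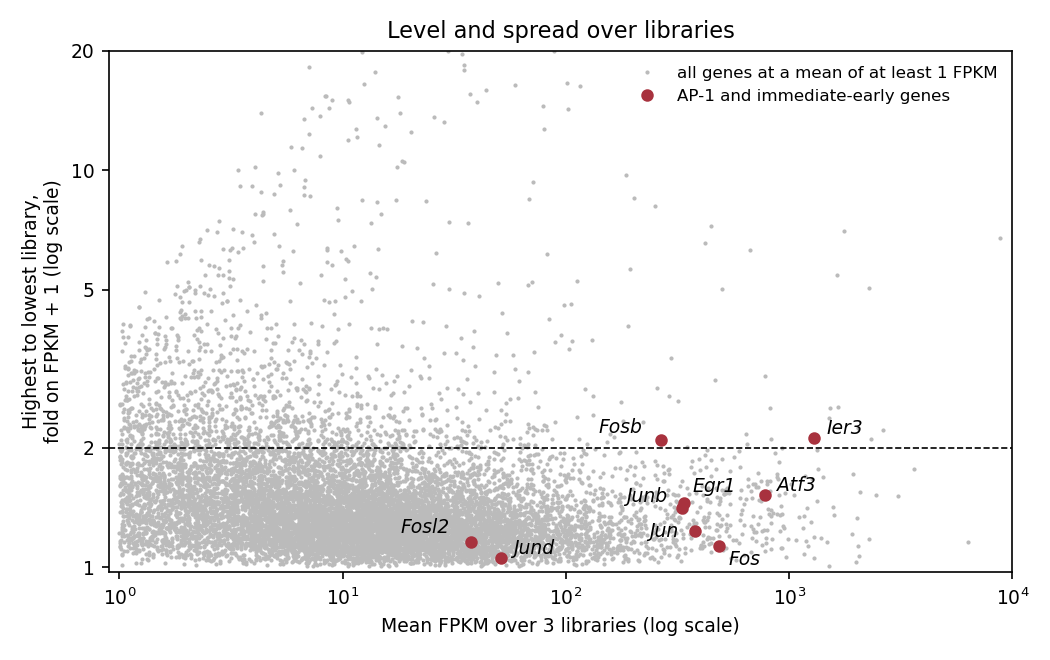
Mean FPKM (x axis, log scale) against the fold between the highest and lowest library on FPKM + 1 (y axis, log scale) for genes at a mean of at least 1 FPKM (grey) and the 9 members among them (red). The dashed line marks 2-fold, which *Ier3* and *Fosb* pass, and 119 genes lie outside the axes.

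The members' spread between libraries ran from a coefficient of variation of 2.78% for *Jund* to 54.9% for *Fosl1*, with a median of 18.01%, against 14.9% over genes at a mean of at least 100 FPKM. *Ier3* and *Fosb*, 2 of the 10 members, differed over 2-fold between libraries on FPKM + 1. Among genes at a mean of at least 1 FPKM 12.7% did so, and among the 887 genes at a mean of at least 100 FPKM 16.1%, and nothing is read from the count of 2. The median fold was 1.43 over the members and 1.33 over those 887 genes. Both calls rest on S52: *Ier3* was over 2-fold higher in S52 than in S38, as were 1.89% of genes at a mean of at least 1 FPKM, and *Fosb* was over 2-fold higher in S52 than in S44, as were 2.01%. No member was over 2-fold lower in S52 than in S38 (7.66% of genes) or in S44 (6.49%), and none differed over 2-fold between S44 and S38, where 0.935% of genes were higher and 1.16% lower in S44. Without S52 no member passed 2-fold, without S38 only *Fosb* did and without S44 only *Ier3* did. With each library scaled to the same sum the fold of *Ier3* was 1.88 and that of *Fosb* 2.36. Without a pseudocount *Fosl1* differed 3.29-fold between S38 and S44.

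The libraries in which *Ier3* and *Fosb* were highest also differed in markers of other cells. In the order S38, S44 and S52, the summed level of 5 platelet markers, led by *Ppbp*, was 1709, 1357 and 40.2 FPKM, and that of 5 alveolar type 2 markers, led by *Sftpc*, was 3778, 3164 and 755 FPKM. The 5 airway markers, led by *Scgb1a1*, summed to 2780, 2316 and 401 FPKM, with *Bpifa1* listed at 0 in S52. The 5 leukocyte markers, led by *Laptm5*, summed to 87.2, 73.2 and 11.2 FPKM, with *Tyrobp* listed at 0 in S52. These 4 lists were lowest in S52, where *Ier3* and *Fosb* were highest, while the 10 endothelial markers had 0 members over 2-fold apart. The 12 heat shock genes summed to 3279, 3236 and 5379 FPKM, of which the constitutive *Hspa8* alone gave 1027, 1001 and 2519 FPKM, while *Hspb1* and *Hspa1b* were lowest in S52. The part of these cells or of the heat shock genes in the values of *Ier3* and *Fosb* was not tested. The highest gene of the neutrophil list, *S100a9*, averaged 17.4 ± 13.6 FPKM, that of the macrophage list, *Cd68*, 20.3 ± 6.12 FPKM, and that of the mural list, *Acta2*, 72.2 ± 22.8 FPKM (SD, n = 3 for each). *Dcn* led the fibroblast list at 34.2 ± 13.8 FPKM and *Lyve1* the lymphatic list at 509 ± 107 FPKM (SD, n = 3 for both), and *Prox1*, the defining factor of lymphatic ECs, was at 0.132 to 0.598 FPKM. The erythroid gene *Hbb-bs* ranged from 0.00319 FPKM in S52 to 308 FPKM in S44. The summed levels over libraries were 5.63 to 49.6 FPKM for the neutrophil list, 18.6 to 33.4 for macrophage and 60.2 to 115 for mural. They were 44.2 to 75.7 for fibroblast, 414 to 641 for lymphatic and 94.6 to 789 FPKM for erythroid markers. Each of these sums but the mural one was lowest in S52. Single genes differed: 2 of 5 neutrophil, 2 of 5 lymphatic and 1 of 5 fibroblast markers were highest in S52. *Lyve1* made up most of the lymphatic sum.

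**Figure D4:**
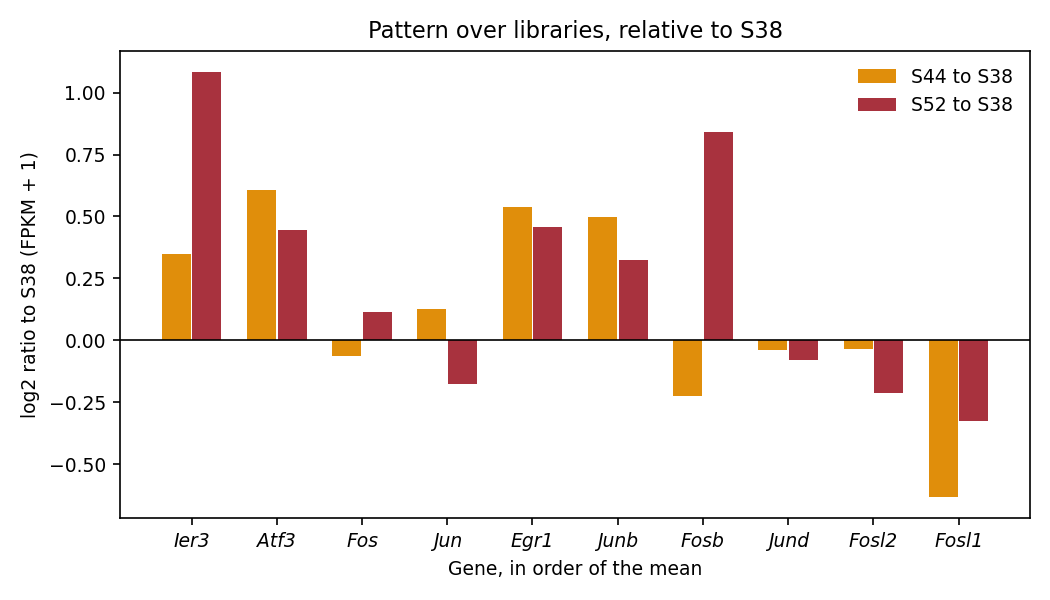
log2 ratio of S44 and of S52 to S38 on FPKM + 1 for each gene. *Atf3*, *Egr1* and *Junb* were higher in both S44 and S52 than in S38, *Ier3* and *Fosb* had the highest ratios of S52 to S38, and *Fos*, *Jund* and *Fosl2* stayed near 0.

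The members did not share a single pattern over the libraries. *Atf3*, *Egr1* and *Junb* kept nearly fixed proportions: the ratio of *Egr1* to *Junb* was 0.9755, 1.005 and 1.07 in the order S38, S44, S52, and that of *Atf3* to *Junb* was 2.21, 2.38 and 2.40. All 3 were lowest in S38 and highest in S44. Another pair was as alike: the Euclidean distance between log2 ratios to S38 on FPKM + 1 was 0.135 for *Fosl2* and *Jund*. It was 0.0687 to 0.163 among *Atf3*, *Egr1* and *Junb*. Over 3 libraries nothing is read from such likeness. *Fos* did not follow *Atf3*, *Egr1* and *Junb*. The ratio of *Atf3* to *Fos* was 1.26, 2.002 and 1.58, and that of *Egr1* to *Fos* was 0.555, 0.844 and 0.704. *Jund*, *Fosl2* and *Jun* were lowest in S52. Among genes at a mean of at least 1 FPKM, 25.4% were lowest in S38, 28.9% highest in S44 and 46.3% lowest in S52. Nothing is read from how many members were highest or lowest in a library. Scaling each library to the same sum moved the values by -0.21, -0.68 and -0.51 on the log2 scale and changed which library was highest for *Atf3*, *Egr1* and *Junb*, from S44 to S52, for *Fos*, from S52 to S38, and for *Jun*, from S44 to S38. *Jund* was lowest in S44 under this scaling and under scaling by the median ratio. *Ier3* and *Fosb* were highest in S52 under each scaling tried. Over 6268 other genes at a mean of at least 10 FPKM, those with log2 ratios to S38 nearest to *Fos* (Euclidean distance on FPKM + 1) were *Cox4i1*, *Dhx38*, *Srp72*, *Dhps* and *Mdp1*, at distances of 0.00715 to 0.0162. As 342 genes lay within 0.1 and there were 3 libraries, these names describe a pattern that is flat in the deposited values only. With each library scaled to the same sum, *Fos* was 1.45-fold apart and *Jund* and *Fosl2* 1.42-fold. Under that scaling *Junb*, *Atf3* and *Egr1* were 1.02-fold, 1.11-fold and 1.12-fold apart. Scaled by the median ratio or to the endothelial markers, *Fos* was 1.19-fold or 1.14-fold apart.

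The other immediate-early genes ranged from a listed 0 to just above *Fos*. Of 40 genes in this list, 38 had a mean of at least 1 FPKM, against 48.3% of all rows. A mean of at least 10 FPKM was reached by 31, against 6269 of the 24346 rows. A mean of at least 100 FPKM was reached by 18, against 3.64% of rows, and the median was 71.3 FPKM. The highest were *Zfp36*, which encodes a protein that binds AU-rich mRNA and speeds its decay, at 519 ± 54.2 FPKM, and *Dusp1*, a phosphatase of MAP kinases, at 413 ± 41.0 FPKM (SD, n = 3 for both). They were followed by the cytokine signalling inhibitor *Socs3* at 376 ± 49.0 FPKM and the NF-κB inhibitor gene *Nfkbia* at 368 ± 113 FPKM (SD, n = 3 for both). *Nfkbia*, at 263, 351 and 488 FPKM, was highest in S52. So were 18 of the 40 genes, *Nfkbia* among them, against 33.9% of genes at a mean of at least 1 FPKM. *Zfp36* was the only gene of the list with a mean above that of *Fos*, but in S38 it was below, at 464 against 476 FPKM. At the other end, the *Egr1* paralogue *Egr4* was listed at 0 in all libraries, and the neuronal gene *Npas4* was at 0.0328 to 0.273 FPKM. Within the Egr family *Egr1* stood far above its paralogues, with *Egr2* at 7.55 ± 1.91 FPKM and *Egr3* at 4.75 ± 1.09 FPKM (SD, n = 3 for both). In the list 6 of 40 genes were over 2-fold apart between libraries, against 12.7% of genes at a mean of at least 1 FPKM, and nothing is read from this count. Of the 6 genes, 4 were highest in S52 and 2 were lowest there.

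Possible dimer partners and related bZIP genes were mostly lower than the members. Of 23 genes, 20 had a mean of at least 1 FPKM, against 48.3% of all rows. A mean of at least 100 FPKM was reached by 2, against 3.64% of rows, and the median was 14.4 FPKM. *Atf4*, the effector of the integrated stress response, reached 506 (S38), 644 (S44) and 729 FPKM (S52), and was the only gene of the list above *Fos*. *Atf3* exceeded *Atf4* in each library, by a ratio of 1.12 to 1.42. The small Maf gene *Mafk* was at 123 ± 22.6 FPKM, the antioxidant response factor *Nfe2l2* at 91.4 ± 8.34 FPKM and *Cebpd* at 87.8 ± 16.7 FPKM (SD, n = 3 for each). *Jdp2*, which competes with Fos for Jun, was at 38.3 ± 14.4 FPKM, and *Atf2*, a partner of Jun, at 13.5 ± 1.02 FPKM (SD, n = 3 for both). *Batf3* was lowest, at 0.805 FPKM in S38, 0 in S44 and 0.0531 FPKM in S52. *Jdp2* and *Atf2* were named after their values were seen, as were *Egr2* and *Egr3*.

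Kinases and factors upstream of the immediate-early genes were mostly lower than the members. Of 22 genes 21 had a row, and 20 were at a mean of at least 1 FPKM, against 48.3% of all rows. A mean of at least 100 FPKM was reached by 1, against 3.64% of rows, and the median was 15.9 FPKM. Over 2-fold apart between libraries were 0 genes, against 12.7% of genes at a mean of at least 1 FPKM. *Mapk3*, which encodes ERK1, was at 371 ± 44.1 FPKM (SD, n = 3). The ternary complex factor *Elk3* was at 82.1 ± 6.77 FPKM and the ribosomal S6 kinase gene *Rps6ka1* at 47.4 ± 7.85 FPKM (SD, n = 3 for both). *Mapk10*, a JNK gene typical of neurons, was lowest, listed at 0 in S38 and S52 and at 0.00725 FPKM in S44.

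Genes known from other settings as AP-1 targets ranged widely in level. Of 20 genes, 17 were at a mean of at least 1 FPKM, against 48.3% of all rows, and 3 at 100 FPKM or above, against 3.64%. The median was 20.1 FPKM. Over 2-fold apart were 4 genes, against 12.7% of genes at a mean of at least 1 FPKM. The cell cycle inhibitor gene *Cdkn1a* was at 611 ± 94.8 FPKM, the adhesion molecule gene *Icam1* at 525 ± 62.7 FPKM and the urokinase receptor gene *Plaur* at 265 ± 36.4 FPKM (SD, n = 3 for each). *Mmp10* was listed at 0 in all libraries. The genes have other regulators, and control by AP-1 in these cells was not tested.

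All 12 heat shock genes had a mean of at least 10 FPKM, as did 6269 of the 24346 rows. Of the 12 genes, 6 had a mean of at least 100 FPKM, against 3.64% of all rows, and the median was 104 FPKM. *Hspa8*, a constitutive chaperone, reached 1027 (S38), 1001 (S44) and 2519 FPKM (S52). *Hsp90ab1* was at 754, 625 and 1210 FPKM and *Hsp90aa1* at 244, 194 and 511 FPKM in the same order. *Hspb1* was lowest in S52, at 710, 823 and 402 FPKM. So was the stress-inducible *Hspa1b*, at 125, 135 and 91.7 FPKM, while its near-identical copy *Hspa1a* was at 108, 150 and 138 FPKM. Reads may be split between these copies, so both values are uncertain, and both genes were named after their values were seen. The lowest of the list was *Hsph1*, at 16.5, 20.9 and 45.3 FPKM. In all, 5 of the 12 genes were over 2-fold apart, against 12.7% of genes at a mean of at least 1 FPKM, and 4 of the 5 were highest in S52. For *Fos*, *Jun*, *Junb*, *Egr1* and *Atf3* the log2 ratios of S52 to S38 were -0.18 to 0.46 and those of S52 to S44 -0.31 to 0.18. In the same order they were 1.08 and 0.737 for *Ier3* and 0.843 and 1.07 for *Fosb*. For *Jund*, *Fosl2* and *Fosl1* they were -0.32 to -0.079 and -0.18 to 0.31. Whether any member follows the heat shock genes was not tested.

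Against 22 transcription factors of ECs, *Atf3*, *Fos*, *Jun*, *Egr1* and *Junb* were among the highest. *Epas1*, the hypoxia-inducible factor HIF-2α gene abundant in lung ECs, was at 752 ± 91.9 FPKM (SD, n = 3). By the mean it was the only factor of the list above *Fos*, *Jun*, *Junb* and *Egr1*. Its mean was below that of *Atf3*, 775 ± 160 FPKM (SD, n = 3), by less than the SD of either gene, and in S38 the order was reversed, with *Epas1* at 858 FPKM and *Atf3* at 599 FPKM. *Foxf1*, a lung mesenchymal and endothelial factor, was at 297 ± 43.5 FPKM (SD, n = 3). Its mean was above that of *Fosb*, but in S52 *Foxf1* was at 254 FPKM and *Fosb* at 393 FPKM. In S38 *Foxf1*, at 295 FPKM, was also above *Egr1* (264 FPKM) and *Junb* (271 FPKM). *Ets2* followed at 133 ± 9.23 FPKM and *Lmo2* at 127 ± 24.5 FPKM (SD, n = 3 for both). *Jund* and *Fosl2* each had 12 of the 22 factors above them, and *Fosl1* had 21. The factor *Nkx2-3* was listed at 0 in all libraries. The list had a median of 54.8 FPKM, with 6 of 22 genes at 100 FPKM or above, against 3.64% of all rows. Over 2-fold apart between libraries were 0 genes, against 12.7% of genes at a mean of at least 1 FPKM.

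**Figure D5:**
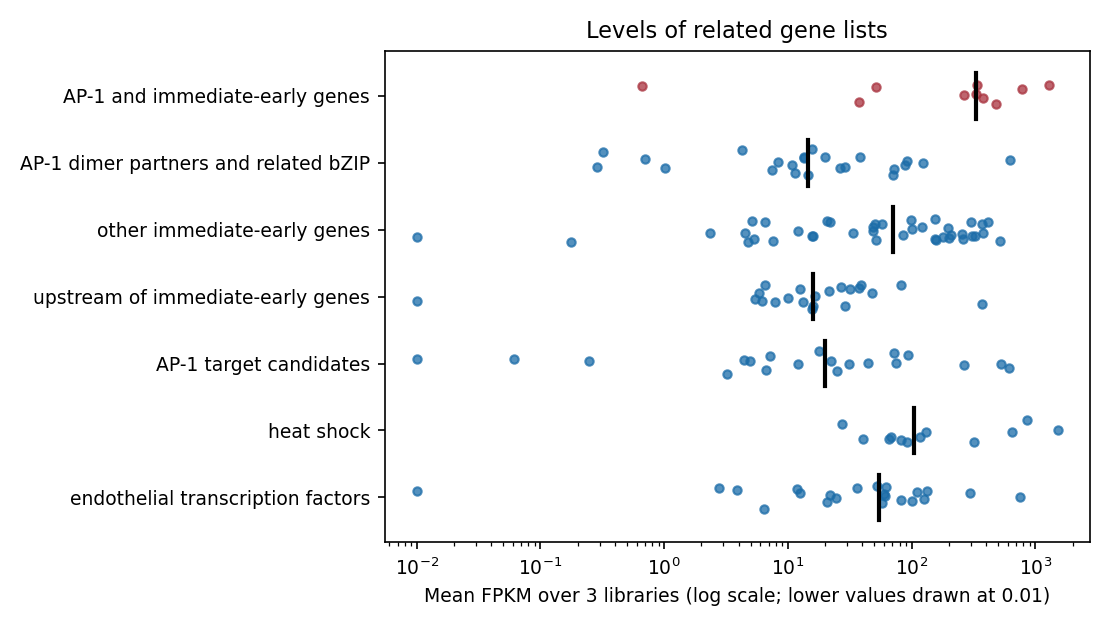
Mean FPKM over the 3 libraries (log scale) of each gene (points) and the median (line) of the 10 members and 6 related lists. The members have the highest median, 334 FPKM, and the heat shock list the next, 104 FPKM, and 1 gene in each of 4 lists lies below 0.01 FPKM and is drawn there.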

How the data were processed

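RNA of sorted adult lung ECs was sequenced as 51 bp paired reads from poly-A selected libraries that keep no strand. The table that the authors deposited gives FPKM for each gene symbol (mm10) in 3 libraries of 1 group. The submitters' processing notes name Trimmomatic 0.36, TopHat2 2.1.0 and Cufflinks 2.2.1, whereas the study's methods describe STAR, HTSeq, edgeR and limma for counts. No source used here says which tool made the FPKM values or with which annotation. Column sums far above 1000000 FPKM and the low share of rows matched by symbol as protein-coding make scaling by the sum doubtful, so it is an alternative only.

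Values were used as deposited with Python 3.11.15 and pandas 2.3.3. Means and SDs are on the FPKM scale, folds on FPKM + 1 (pseudocount 1), which understates changes of low genes. All 3 sample columns were used. No count model and no test between libraries was run. Depth was estimated from the steps of low values of 7077 genes with a single GENCODE M21 transcript of 800 to 4000 bp, a search checked on simulated data, with 76.3% to 79.0% of low values within 0.15 of a whole number. Alternatives were leaving out each library, 3 scalings, other thresholds and a pseudocount of 0.1. Named genes are all members, the 4 highest and the lowest of each list, the 5 genes nearest to *Fos* in pattern, the highest of each marker list and genes that overlap a member. A few genes that this rule names are not reported here. Members and lists were chosen with earlier results of these data known.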

Additional observations from a re-analysis of the deposited data

How the results depend on the processing

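The number of members at 100 FPKM or above stayed at 7 when any library was left out, under each scaling and when the threshold had to be reached in every library, and was 9 at 30 FPKM and 6 at 300 FPKM. The number of members over 2-fold between libraries was 2 as reported, ranged from 0 (without S52) to 1 when 1 library was left out, and was 1 (*Fosb*) with each library scaled to a sum of 1000000, 3 with a pseudocount of 0.1, 4 at a threshold of 1.5-fold and 0 at 3-fold. The scaling to 1000000 lowered the median of the members from 334 to 239, the Fos family sum from 787 to 576 and the Jun family sum from 759 to 550, and by construction left the ratio of the families at 1.05. Of 60 member means recomputed under 6 alternatives, 53 moved by less than 1 SD and the 7 others moved under the scaling to 1000000. The share of genes at a mean of at least 1 FPKM that were over 2-fold apart was 12.7% as reported and 2.14% without S52, 34.2% at 1.5-fold and 4.80% at 3-fold, and with no filter on low values or a minimum of 10 FPKM it was 7.53% or 7.90%. No paired analysis was possible because the libraries form 1 group. With 3 libraries of 1 condition no outlying library was tested for, and depth limits only *Fosl1* among the members.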
